A study of Mus musculus with 6 samples.

Results

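Actin filaments and the myosin that pulls on them give a cell its stiffness, its shape and its grip on the matrix. Much of this machinery is transcribed under serum response factor (SRF), which binds a short AT-rich element, the CArG box. When RhoA signaling drives actin monomers into filaments, the myocardin-related transcription factors MRTF-A and MRTF-B are released from monomeric actin, enter the nucleus and join SRF at cytoskeletal genes. At immediate early genes such as Fos and Egr1, SRF works with ternary complex factors of the ELK family instead. In smooth muscle and in the myoepithelial cells of the mammary gland, SRF with its partners keeps contractile genes at very high levels.

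A set of 10 such genes was followed in mammary tumor cells sorted by lipoprotein uptake. They code for the smooth muscle actins (Acta2 and Actg2), transgelins (Tagln and Tagln2), calponins (Cnn1 and Cnn2), a myosin regulatory light chain (Myl9), tropomyosins (Tpm1 and Tpm2) and filamin A (Flna). They were picked by gene symbol from the protein-coding table of the series, and all 10 were found among its 53379 counted gene IDs. Of the 10, 6 passed the filter on low counts and were tested together with 12572 protein-coding genes in all. That these genes depend on SRF is background knowledge, and neither SRF binding nor SRF activity was measured in these libraries.

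The cells were 4T1-T, a single sub-clone of the mouse mammary carcinoma line 4T1 that forms vasculogenic mimicry (VM) networks. All cultures were serum starved overnight in Opti-Mem with BSA and given acetylated low-density lipoprotein (acLDL) carrying Alexa-488 at 10 ug/mL for 4 h. The study's methods then give 1 h in complete growth medium, written for imaging, and trypsinizing of the cells to be sorted. The top 25% of cells by fluorescence formed the acLDL-high group and the bottom 25% the acLDL-low group, with 3 RNA-Seq libraries of each, replicates 1 to 3, and no other treatment or genotype between them. The experiment was repeated on 3 occasions, and libraries that share a replicate number moved together across genes, so acLDL-high was compared with acLDL-low within 3 pairs. The comparison asks whether cells that take up much acLDL, a feature of endothelial cells, differ in RNA from cells that take up little.

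The epithelial keratin genes Krt8 and Krt18 were present as the carcinoma label requires and averaged 1112 and 1128 CPM over the 6 libraries, CPM being counts scaled to the size of each library. Libraries held between 70263372 and 94216786 counts, and 3 counts, the limit used for detection, correspond to between 0.0323 and 0.0429 CPM. That limit covers counting error only. Small counts were mostly even, 72.3% of those from 1 to 10, and if both mates of a pair were counted, 2 reads stand for 1 fragment and the limit for fewer fragments than 3. In bulk RNA, fewer cells of a type and less RNA per cell cannot be told apart.

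The CArG box is the element through which SRF reads these genes, so the stretches around each one found are shown first. RefSeq sequences of the 250 bases before the start site (GRCm38.p6) were at hand for 8 of the 10 genes, all but Tagln and Actg2. A complete box, which reads as a run of 6 A or T bases between CC and GG, was found in 2 of the 8, Cnn2 and Myl9. Among all 32851 promoter windows of that length, 482 held a complete box, or 1.47%. Allowing 1 C or G within the core of 6 added Acta2, with 3 of the 8 windows against 2823 of all windows, or 8.59%. The members were picked as known SRF genes, so their share of boxes is not independent of that choice. The box reads the same way on both strands, so 1 search covers both. In the lines that follow, capitals mark the box and 10 bases are given on either side, 5′ to 3′ along the strand of the gene, with positions counted back from the RefSeq start. The Acta2 gene of GENCODE begins further upstream, at 34255590, so both of its stretches lie inside that gene model.
Cnn2, complete box at -56 to -47, chr10:79988534-79988563, plus strand: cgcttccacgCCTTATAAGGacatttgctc
Myl9, complete box at -161 to -152, chr2:156775293-156775322, plus strand: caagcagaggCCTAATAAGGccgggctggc
Myl9, 1 core base G, at -99 to -90, chr2:156775355-156775384, plus strand: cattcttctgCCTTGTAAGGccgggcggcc
Acta2, 1 core base C, at -84 to -75, chr19:34255438-34255467, minus strand: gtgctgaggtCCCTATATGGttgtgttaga
Acta2, 1 core base G, at -34 to -25, chr19:34255388-34255417, minus strand: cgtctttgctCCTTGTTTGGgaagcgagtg

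Cnn2 was the 1 member past the threshold in these cells, and a longer stretch of its promoter, which ends before both the GENCODE and the RefSeq start, is given with the box in capitals.
Cnn2, chr10:79988350-79988583, plus strand: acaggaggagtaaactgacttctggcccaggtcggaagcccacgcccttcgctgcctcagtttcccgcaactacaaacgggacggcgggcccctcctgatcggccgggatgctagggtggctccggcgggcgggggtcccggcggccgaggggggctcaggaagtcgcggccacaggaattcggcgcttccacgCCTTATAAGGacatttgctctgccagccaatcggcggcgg

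**Figure D1:**
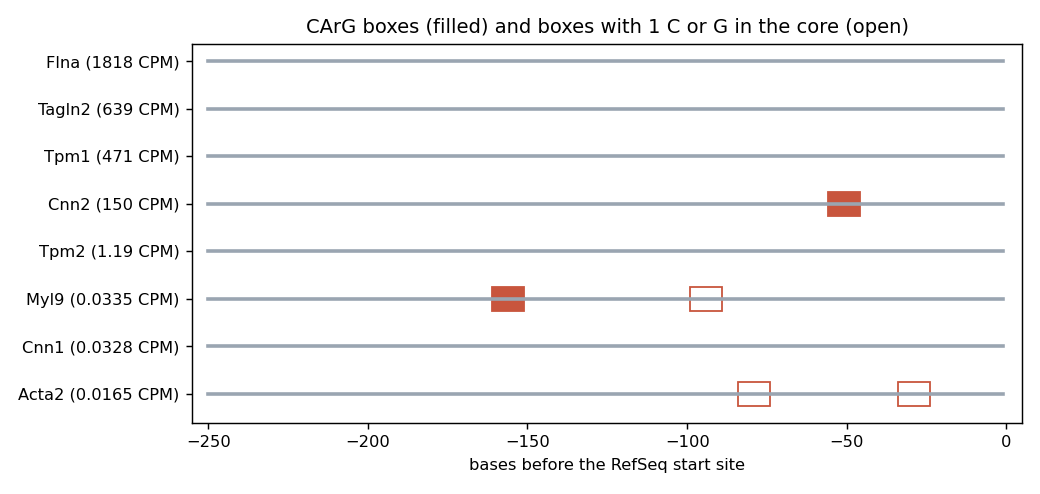
Position of CArG boxes in the windows of the 8 members with a RefSeq promoter, plotted as bases before the start site, with each gene's mean CPM over the 6 libraries beside its symbol. Filled marks are complete boxes and open marks have 1 C or G in the core. Of the 3 genes with a mark, Cnn2 averaged 150 CPM while Myl9 and Acta2 averaged 0.0335 and 0.0165 CPM.

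Among the 8 genes, Cnn2 was abundant with a complete box, Myl9 was near the detection limit with a complete box, and Flna, Tagln2 and Tpm1 were abundant with no such letters in this window. Against GENCODE, the window of Flna lies within its gene model, and those of Tagln2 and Tpm1 lie mostly within theirs. For these genes the bases before the GENCODE start were therefore searched in part or not at all. A match to the letters is a description of the sequence, and sites outside the 250 bases were not searched.

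The 10 genes fell into an abundant group and a nearly silent group. Per kilobase of annotated exon, which allows genes to be compared, Tagln2 was highest at 306.7 CPM per kb, followed by Flna at 193.4, Tpm1 at 72.7 and Cnn2 at 60.9 CPM per kb. The 6 libraries of Tagln2 all lay above those of Flna, whereas the libraries of Tpm1, between 51.9 and 99.5 CPM per kb, overlapped those of Cnn2, between 44.0 and 76.0 CPM per kb. Below a wide gap came Tpm2 at 0.409 and Tagln at 0.0924 CPM per kb, whose libraries did not overlap each other. Myl9 at 0.0288, Actg2 at 0.0143, Cnn1 at 0.0120 and Acta2 at 0.00753 CPM per kb closed the order, and neighbors from Tagln downward overlapped. The members that mark smooth muscle and myoepithelium were thus the ones at the bottom, and the members used by cells of many kinds were at the top.

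**Figure D2:**
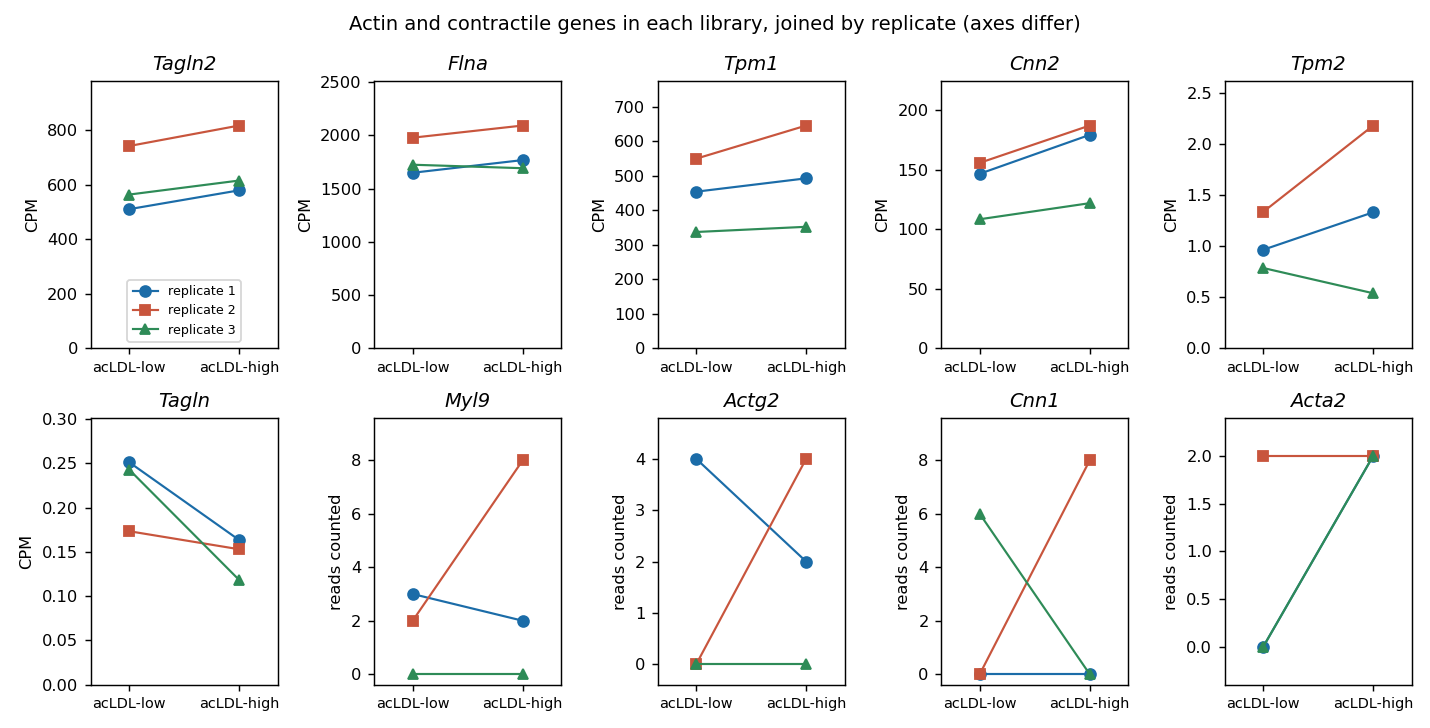
Level of each of the 10 genes in the 6 libraries, as CPM for the 6 tested genes and as counted reads for the 4 untested ones, with lines joining the libraries of 1 replicate number and a separate scale for each gene. The 3 lines of Cnn2, Tagln2 and Tpm1 all rise from acLDL-low to acLDL-high, and the 4 untested genes never exceed 8 reads.

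Calponin 2 (Cnn2, ENSMUSG00000004665, chr10:79988584-79996062, plus strand) is the actin-binding calponin of non-muscle cells. It stood at 146.5, 155.7 and 108.3 CPM in acLDL-low libraries 1 to 3 and at 179.2, 187.0 and 121.8 CPM in acLDL-high libraries 1 to 3. Every acLDL-high library was above its own partner, although the groups overlapped because replicate 3 was low in both populations. The acLDL-high libraries averaged 163 ± 35.6 CPM and the acLDL-low libraries 137 ± 25.1 CPM (SD, n = 3 each). Within pairs Cnn2 was 1.18-fold higher in acLDL-high cells, a log2 fold change of 0.24 with an SE of 0.04 and a 95% interval from 0.15 to 0.33. In edgeR's quasi-likelihood test, with pairs as blocks, the adjusted p was 0.00676. The log2 differences of the 3 pairs were 0.29, 0.26 and 0.17. The call rests on the pairing, since the same test gave 0.25 on the log2 scale and an adjusted p of 1.00 once the block was dropped.

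Cnn2 was 1 of 6 tested members called higher in acLDL-high cells, and 0 of 6 were called lower. Of all 12572 genes tested, 431 or 3.43% were called higher and 166 or 1.32% lower, so the count among the members is 1 gene and no more can be read from it as a share. Cnn2, Tagln2, Tpm1 and Flna each averaged over 100 CPM, and of the 2422 tested genes at that level 115 or 4.75% were called higher. The median log2 fold change of the 6 tested members was 0.14 beside 0.0017 over all genes tested, with single members between -0.62 and 0.31.

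Transgelin 2 (Tagln2, ENSMUSG00000026547, chr1:172500047-172507380, plus strand), an actin-bundling protein found well beyond muscle, came close to the threshold. Its CPM was 510.7, 742.8 and 564.3 in acLDL-low libraries 1 to 3 and 579.9, 818.0 and 615.9 in acLDL-high libraries 1 to 3. Each acLDL-high library lay above its partner by a similar margin, with log2 differences of 0.18, 0.14 and 0.13, while the groups overlapped across occasions. The log2 fold change was 0.15 with an SE of 0.04 and an edgeR adjusted p of 0.0663, which did not pass. It passed under 4 of 10 alternative settings, among them DESeq2's Wald test with an adjusted p of 0.0128.

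Tropomyosin 1 (Tpm1, ENSMUSG00000032366, chr9:67022590-67049406, minus strand) lies along actin filaments and steadies them. It measured 453.4, 549.2 and 336.6 CPM in acLDL-low libraries 1 to 3 and 492.1, 645.2 and 351.7 CPM in acLDL-high libraries 1 to 3. All 3 pairs pointed to acLDL-high, by log2 differences of 0.12, 0.23 and 0.06, within groups that overlapped widely. The log2 fold change of 0.14 (SE 0.05) had an edgeR adjusted p of 0.118 and did not pass. Over all genes tested, 20.9% had all 3 pairs higher in the acLDL-high library, and over those of at least 100 CPM 23.6% did. These shares are the background for the 3 members (Cnn2, Tagln2 and Tpm1) that did.

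Filamin A (Flna, ENSMUSG00000031328, chrX:74223461-74249820, minus strand) crosslinks actin filaments and ties them to membrane proteins, and it had the highest CPM of the 10. Values were 1649, 1979 and 1725 CPM in acLDL-low libraries 1 to 3 and 1768, 2093 and 1692 CPM in acLDL-high libraries 1 to 3. The first and second pairs were higher in acLDL-high cells by log2 differences of 0.10 and 0.08, and the third was lower by -0.03. The log2 fold change was 0.05 with a 95% interval from -0.05 to 0.15 and an edgeR adjusted p of 0.602.

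Tropomyosin 2 (Tpm2, ENSMUSG00000028464, chr4:43514711-43523765, minus strand), which is abundant in muscle, was low at 0.965, 1.34 and 0.786 CPM in acLDL-low and 1.33, 2.18 and 0.538 CPM in acLDL-high libraries 1 to 3. The pairs disagreed in direction, with log2 differences of 0.46, 0.70 and -0.53. The log2 fold change of 0.31 carried a 95% interval from -0.20 to 0.81 (edgeR adjusted p = 0.518). Without the second pair it was 0.03 and without the third 0.60, so its size was set by single pairs.

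Transgelin (Tagln, ENSMUSG00000032085, chr9:45929619-45936058, minus strand), also called SM22 alpha and an early marker of smooth muscle, was the 1 tested member with a negative estimate. It had 19, 14 and 17 reads in acLDL-low libraries 1 to 3 and 13, 11 and 11 in acLDL-high libraries 1 to 3, or 0.251, 0.173 and 0.243 CPM against 0.163, 0.153 and 0.118 CPM. The groups did not overlap, which in this direction was so for 205 of the 12572 genes tested, or 1.63%. No member stood apart the other way, with every acLDL-high library above every acLDL-low one, as 155 of all tested genes or 1.23% did. The log2 fold change was -0.62 with an SE of 0.44 and an edgeR adjusted p of 0.487, so the difference was within the error of so few reads. Genes annotated on the opposite strand, Pcsk7 among them, overlap 67.9% of the exon bases of Tagln, and whether the counting used strand is not given in the sources used here.

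**Figure D3:**
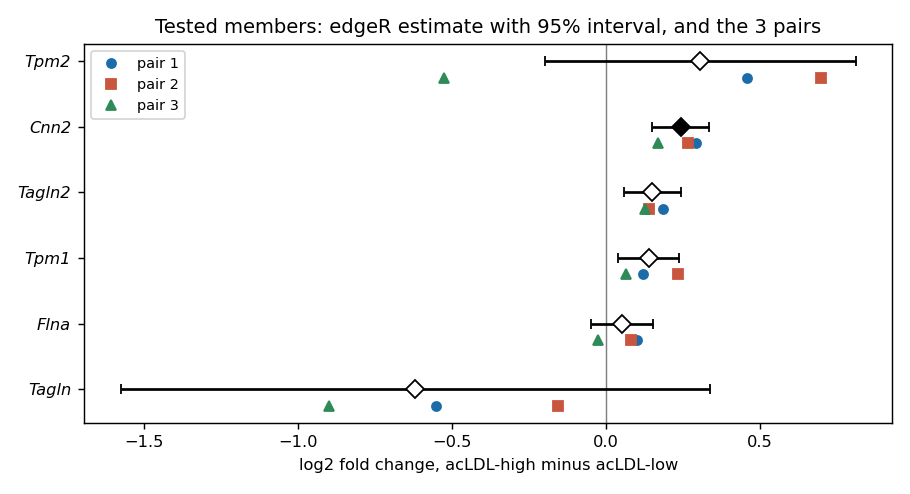
Log2 fold change of acLDL-high over acLDL-low for the 6 tested members, with diamonds for the edgeR estimate, bars for its 95% interval and colored marks for the log2 CPM differences of the 3 pairs. The filled diamond of Cnn2 at 0.24 is the member that passed, and the intervals of Tagln and Tpm2, the least abundant, are the widest.

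The other 4 members were at or near the detection limit in both populations and were not tested. Myl9 (ENSMUSG00000067818, chr2:156775420-156781658, plus strand), a light chain through which kinases switch myosin on, had 3, 2 and 0 reads in acLDL-low and 2, 8 and 0 in acLDL-high libraries 1 to 3. Smooth muscle gamma actin (Actg2, ENSMUSG00000059430, chr6:83512905-83536265, minus strand) had 4, 0 and 0 reads in acLDL-low and 2, 4 and 0 in acLDL-high libraries. Smooth muscle calponin (Cnn1, ENSMUSG00000001349, chr9:22099216-22109630, plus strand) had 0, 0 and 6 reads in acLDL-low and 0, 8 and 0 in acLDL-high libraries. Smooth muscle alpha actin (Acta2, ENSMUSG00000035783, chr19:34241090-34255590, minus strand) had 0, 2 and 0 reads in acLDL-low and 2 reads in each acLDL-high library, so none of its 6 libraries reached 3. At this depth no difference between the populations was detectable for these 4 genes.

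Most tested members differed more between the 3 occasions than between the sorted populations within a pair. The labels give only a replicate number, so culture, labeling, sorting and library preparation cannot be told apart within an occasion. Tpm1 averaged 473 CPM over both libraries of replicate 1, 597 CPM in replicate 2 and 344 CPM in replicate 3, a log2 range of 0.79, beside a largest difference within any pair of 0.23. The log2 range of the occasion means was 0.57 for Cnn2, 0.52 for Tagln2 and 0.25 for Flna, against largest differences within a pair of 0.29, 0.18 and 0.10. Replicate 2 was the highest occasion for 5 of the 6 tested members, namely Tagln2, Flna, Tpm1, Cnn2 and Tpm2. How many of all genes tested were highest in replicate 2 was not counted, so this is no trait of the members. Over all genes tested the median log2 range of the occasion means was 0.453, and over those of at least 100 CPM it was 0.366. How many genes in all had a range above their largest difference within a pair was not counted. Each occasion holds 1 library of each population, so these ranges have no replicates of their own and no test was made.

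**Figure D4:**
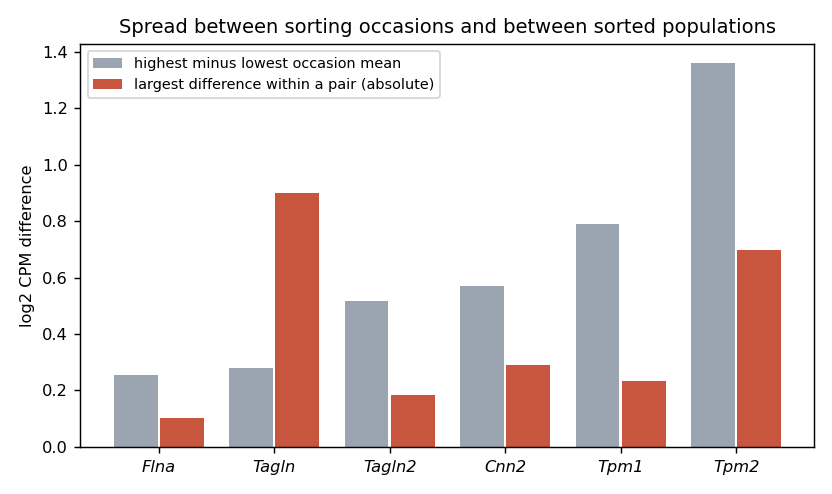
Log2 range of the 3 occasion means (gray) and largest absolute log2 difference within a pair (red) for the 6 tested members, as bars from 0. The gray bar is the taller one for Flna, Tagln2, Cnn2, Tpm1 and Tpm2, and the reverse holds for Tagln, which had 11 to 19 reads per library.

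Most tested members also followed each other over the libraries, some closely and some loosely. Across the 6 libraries Pearson's r of log2 CPM was 0.956 between Tagln2 and Flna, 0.939 between Tpm1 and Tpm2 and 0.926 between Tpm1 and Cnn2. These r values are a description only, because the 6 libraries come from 3 occasions. The lowest r among these genes was 0.495, between Tagln2 and Cnn2. For Tagln, r with the others ran from -0.533 (Tagln2) to 0.0051 (Tpm2). How often genes at large correlate this strongly over these libraries was not computed. Among 10390 genes outside the lists, those most like the mean standardized pattern of the tested members were Wasf1 (r = 0.995), Eno3 (r = 0.994), Uqcc2 (r = 0.992), Nfatc2 (r = 0.991) and Kank3 (r = 0.989). None of these 5 passed the test between populations.

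The regulators of the pathway, which set how much SRF is active, were tested at 20 of 21 genes listed, with 1 called higher, 0 lower and a median log2 fold change of 0.04. That count is near the 3.43% called higher over all genes tested and is no result about the regulators. The called gene was Diaph3, a formin that polymerizes actin and also acts in cell division, at 0.19 (SE 0.05, edgeR adjusted p = 0.0361). Srf itself had log2 differences of 0.36, -0.01 and 0.38 in the 3 pairs and an estimate of 0.24 (SE 0.06, edgeR adjusted p = 0.0518) that did not pass. It passed under 5 of 10 alternative settings, namely DESeq2's size factors, DESeq2's Wald test, no filter on low counts, all genes of the count table and without replicate 2. Mrtfa and Mrtfb had log2 fold changes of -0.06 and -0.04, and Myocd, the myocardin of heart and smooth muscle, had 0 reads in every library. The most abundant regulators that did not pass were Rhoa at 0.02 and Elk3 at 0.13.

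Of 35 other genes known as SRF or MRTF targets in other cells 32 were tested, and 10 or 31.2% were higher in acLDL-high cells, 0 lower, with a median log2 fold change of 0.12. Over all genes tested 3.43% were higher, and over those above 100 CPM 4.75%. Some called targets, Egr3 and Lima1 among them, averaged under 100 CPM. The list was chosen with earlier results of these data known, so its share is not independent of them. The matricellular protein genes Ccn2 and Thbs1 were higher by 0.62 (SE 0.05, edgeR adjusted p = 4.24e-05) and 0.68 (SE 0.07, edgeR adjusted p = 0.000122) on the log2 scale, and Ankrd1, an ankyrin repeat protein of muscle, by 0.47 (SE 0.05, edgeR adjusted p = 0.000119). All 3 pairs shared the direction for each, with log2 differences between 0.49 and 0.78 for Ccn2, of whose exon bases 23.2% are overlapped by the opposite-strand gene Gm15270. Egr3, an immediate early transcription factor, was higher by 0.46, and the LIM proteins Lima1 and Csrp1, which sit on actin filaments, by 0.23 and 0.22. The remaining called genes were Ccn1, Junb, Fos and Actg1. The most abundant targets that did not pass were Actb at 0.20 and Myh9, a non-muscle myosin heavy chain, at 0.06. Egr1 went the other way in all 3 pairs, by log2 differences of -0.10, -0.15 and -0.22. Its estimate of -0.16 (SE 0.04, edgeR adjusted p = 0.0586) did not pass, though it did under 3 of 10 alternative settings. Grouped by role after their values were seen, the called genes were 4 of 4 matricellular genes with Ankrd1, 3 of 8 immediate early genes and 3 of 20 tested cytoskeletal and adhesion genes. Ccn1, Ccn2, Thbs1 and Ankrd1 are also known targets of YAP, so they do not stand for SRF alone. A difference between these groups or from the members was not tested.

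Relatives of the members gave 1 call as well. Among 16 genes of the same families, 12 were tested, 1 was higher and the median log2 fold change was 0.09. Over all genes tested 3.43% were higher, so the count is 1 gene and no more can be read from it as a share. Actg1, the cytoplasmic gamma actin, was higher by 0.22 (SE 0.05, edgeR adjusted p = 0.0268), while Actb, the cytoplasmic beta actin and at 2848 CPM more abundant than any member, was at 0.20 (edgeR adjusted p = 0.0643) and Tpm4 at 0.13 (edgeR adjusted p = 0.113). Actin genes are near-identical in their coding parts, so how reads were shared among them by the counting is uncertain. Of 16 genes of smooth muscle maturation 11 were tested and 1, Csrp1, was higher, with a median log2 fold change of 0.01. That count too is 1 gene and is no result about the list. Myocd, Lmod1, Kcnmb1 and Pln had 0 reads and Des at most 2 in any library, whereas Cald1 and Smtn, abundant in many cell types, had log2 fold changes of 0.11 and 0.01 that did not pass.

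Genes of actin assembly and crosslinking gave 4 higher and 0 lower of 31 tested out of 32, with a median log2 fold change of 0.06. They were Enah, which extends filaments at the leading edge, at 0.27 (edgeR adjusted p = 0.0128), the monomer-binding thymosin Tmsb4x at 0.20 (edgeR adjusted p = 0.0257), the depolymerizing factor Dstn at 0.18 (edgeR adjusted p = 0.0386) and the bundling protein Pls3 at 0.19 (edgeR adjusted p = 0.0458). The most abundant that did not pass were Msn, which links actin to the membrane, at 0.08 and Myh9 at 0.06. Genes of RhoA and myosin phosphatase signaling gave 4 higher and 1 lower of 20 tested out of 21, with a median of 0.05. Higher were Ect2, Anln and Racgap1, which place the cleavage furrow in dividing cells, at 0.23, 0.19 and 0.17, and Rnd3, an inhibitor of RhoA signaling, at 0.27. Lower was Arhgef2, a RhoA activator held on microtubules, at -0.16 (SE 0.04, edgeR adjusted p = 0.0452). The most abundant that did not pass were Arhgdia at -0.01 and Rac1 at 0.08. Over the 6 lists 127 distinct genes were named and 115 tested. Of those tested 19 or 16.5% were higher, beside 3.43% of all genes tested and 4.75% of those above 100 CPM. Lower was 1 or 0.870%, beside 1.32% of all genes tested. The lists were chosen with earlier results of these data known, so these shares are not independent of them. These 20 calls rested on the pairing and on the third pair, since 0 were made by edgeR with no block and 3 (Ankrd1, Ccn2 and Thbs1) without replicate 3, where the calls over all genes also went from 597 to 126.

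**Figure D5:**
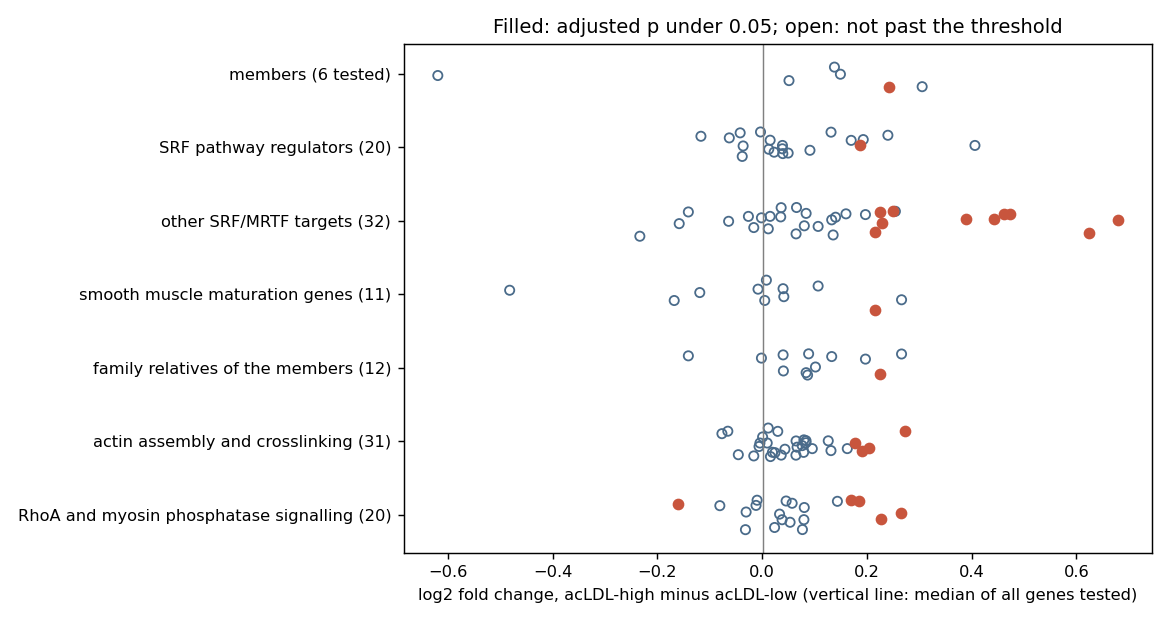
Log2 fold change of acLDL-high over acLDL-low for the tested members and for the tested genes of the 6 lists, 1 circle per gene and filled where the edgeR adjusted p was under 0.05, with some genes in more than 1 list. The filled circles of the other SRF and MRTF targets reach 0.68, and that of the members, Cnn2, lies at 0.24.

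Cell cycle genes also differed between the populations. Of 20 G2/M genes 13 were higher in acLDL-high cells, beside 3.43% of all genes tested. All 20 had positive estimates, with a median log2 fold change of 0.30 beside 0.0017 over all genes tested. Their summed level was 3141 to 3960 CPM in acLDL-low and 3887 to 4824 CPM in acLDL-high libraries. Their differences by pair were 0.13, 0.39 and 0.31, whereas those of Cnn2 were 0.29, 0.26 and 0.17. The part of the cell cycle in the values of the members, and in those of Diaph3, Ect2, Anln and Racgap1, was not tested.

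Markers of the cell types known for the contractile members ranged from 0 reads to clear detection. Of the smooth muscle, pericyte and fibroblast markers, 5 of 12 were tested and 0 called, Myocd, Lum and Col3a1 had 0 reads, and the summed level was 29.9 to 44.4 CPM in acLDL-low and 30.7 to 47.8 CPM in acLDL-high libraries. Pdgfra, at a mean of 36.0 CPM, made up most of it, and Notch3 and Cspg4 averaged 1.26 and 1.15 CPM. Of the 7 myoepithelial markers 5 were tested and 0 called, with Krt5 at 0 reads, Trp63 at 0.153 CPM and Mylk at 4.84 CPM. Krt14 averaged 98.6 CPM and made up most of their summed level, 42.0 to 183 CPM in acLDL-low and 36.4 to 254 CPM in acLDL-high libraries. Endothelial markers had 3 of 8 tested and 0 called, with Flt4 and Emcn at 0 reads and a summed level of 1.56 to 2.64 CPM in acLDL-low and 1.51 to 2.32 CPM in acLDL-high libraries. Macrophage markers had 4 of 10 tested and 1, Cd14, called higher at 0.32 (edgeR adjusted p = 0.0246), with Adgre1, C1qa and C1qb at 0 reads and a summed level of 19.2 to 21.6 CPM in acLDL-low and 20.1 to 24.4 CPM in acLDL-high libraries. Of the 9 epithelial markers 9 were tested and 3, Cldn3, Cldn7 and Esrp1, were higher. Over all genes tested 3.43% were called higher, and each of these marker lists is short. What these markers contribute to the values of the members was not tested.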

How the data were processed

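RNA was measured by RNA-Seq in 3 acLDL-high and 3 acLDL-low samples of sorted 4T1-T cells, grouped by the sample titles. Per the labels and the study's methods, mRNA libraries were stranded (TruSeq) and sequenced as paired ends, and the authors aligned the reads to mm10 with STAR (2.5.2a), counted them with featureCounts (1.4.3-p1) and deposited raw counts for 53379 Ensembl gene IDs. The annotation release, the strand setting and whether mates were counted singly are not given in the sources used here. Of the counts from 1 to 10, 72.3% were even, against 49.9% of those of 10001 and more. The authors' second table, from DESeq2 (1.20.0) for 15973 protein-coding genes, holds a mean normalized count (a signal), a log2 fold change with its error, a Wald statistic (a score) and p-values. Its values are the authors' own comparison, and only its gene IDs and symbols were used.

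The members and the lists were chosen with earlier results of these data known, and so were the tests. Counts of protein-coding genes passing filterByExpr were fitted with edgeR (4.0.16, R 4.3.3, limma 3.58.1), TMM scaling, replicate number as a block and the quasi-likelihood test (glmQLFit, glmQLFTest), with Benjamini-Hochberg adjustment over all 12572 genes and a threshold of 0.05. The SE is the log2 fold change over the square root of F. For CPM, library sizes were scaled by TMM, and a prior count of 2 was added before taking log2 CPM differences of pairs. The labels number the replicates and the design text states that the experiment was done on 3 occasions. Deviations of same-numbered libraries from their group means correlated at 0.795, 0.846 and 0.799 and those of other pairs between -0.557 and -0.0882, so the numbers were taken as pairs. Libraries are separate sorts of 1 clone. With the block, p-values set the mean difference within pairs against an error estimate. That estimate draws on how the pairs of the gene varied and, in the quasi-likelihood fit, also on the trend over other genes. The smallest differences between libraries, those within pairs, were above sampling noise (chi-square per degree of freedom from 20.5).

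Positions and exon lengths came from GENCODE M21 (GRCm38, the assembly of mm10), which lists 53274 of the counted IDs, and promoters from RefSeq (GRCm38.p6). Named genes were the 10 members, from each list the genes with adjusted p under 0.05 (the 6 with the smallest p where more passed) and the 2 most abundant that did not pass, the 5 genes of at least 1 average log2 CPM most correlated with the members, and markers. Srf, Mrtfa, Mrtfb, Ccn1, Junb, Fos, Egr1 and the list genes at 0 reads fall outside that rule and were added with their values known. The comparison with genes over 100 CPM was added in the same way.

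The fit was tested on simulated data drawn from these libraries, where 186 of 200 altered genes were recovered among 12483 with 11 false calls. Each altered gene was given a change larger than the estimate of any member. Recovery of changes as small as that of Cnn2 was therefore not tested. Alternatives were no block, DESeq2 size factors, DESeq2's Wald test (1.42.0), no filter on low counts, a minimum of 10 counts in each library, inclusion of non-coding gene IDs, offsets that take out the trend on gene length, omission of each pair, a threshold of 0.01 and, for occasion ranges, a prior count of 0.5.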

Additional observations from a re-analysis of the deposited data

How the results depend on the processing

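The call for Cnn2 held under 9 of 10 alternatives, with log2 fold changes from 0.22 to 0.28 over all 10. The exception was the fit with no replicate block, at 0.25 with an adjusted p of 1.00 and an unadjusted p of 0.274. Without the block edgeR called 0 members, 0 pathway list genes and 0 of 12329 genes tested, of which 45 had an unadjusted p under 0.05. The number of members called was 2 in place of 1 with DESeq2's size factors, with DESeq2's Wald test, with no filter on low counts and with all genes of the count table. The gene added was Tagln2, at 0.15, 0.15, 0.16 and 0.16 with adjusted p of 0.0497, 0.0128, 0.0263 and 0.0417. Leaving out each pair gave 1 member each time. Tpm1, Flna, Tpm2 and Tagln passed under none of the 10 alternatives, though DESeq2's Wald test gave Tagln no adjusted p. None of the 6 tested members changed sign.

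Counts over many genes moved more. Against 597 of all genes, 932 were called with no filter on low counts and 199 at an adjusted p under 0.01, and leaving out each pair gave 126 (without replicate 3) to 869 (without replicate 2). Lower calls were 103 with DESeq2's Wald test, 263 with no filter on low counts, 267 without replicate 2 and 14 without replicate 3 against 166, and higher calls 365, 669, 602 and 112 against 431. Against 20 pathway list genes, 5 were called at an adjusted p under 0.01, and leaving out each pair gave 3 (without replicate 3, namely Ankrd1, Ccn2 and Thbs1) to 29 (without replicate 2). Of 270 comparisons over 27 named list genes, 219 kept direction and side of the threshold, 40 lost and 7 gained the call and 4 changed sign. The 4 concerned Rhoa, Arhgdia and Smtn. With each pair left out, Rhoa ranged from -0.0020 (without replicate 3) to 0.037, Arhgdia from -0.045 to 0.037 (without replicate 3) and Smtn from -0.051 (without replicate 1) to 0.057, and Smtn was at -0.0053 with no block. None of these 3 genes passed with all 6 libraries and the block. The cause of these changes was not tested.

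Depth limits what can be said of Tagln, with 11 to 19 reads per library, and of Myl9, Actg2, Cnn1 and Acta2, which had too few reads to be tested.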
